A study of Mus musculus with 30 samples.

Results

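The genes described here are 50 genes of DNA replication and mitosis, whose RNA is made mainly by cells that are dividing. They were chosen by name, for their roles in the cell cycle, and are 50 of the 30205 genes in the data. They were sorted by role into 6 regulators of the passage from G1 to S phase, 13 genes of replication licensing and the replication fork, 4 genes of nucleotide supply, 11 regulators of G2 and mitosis, and 16 genes of chromosomes, kinetochores, the spindle and cytokinesis. Estimated counts and TPM (the share of a library that a transcript takes, corrected for its length) of a gene's transcripts were summed in each of 30 libraries.

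The study that made these libraries asked whether gelatin hydrogels with molded grooves improve the maturation of cultured mouse muscle fibers. Its 10 groups, with 3 separately grown cultures each, were sequenced as paired-end RNA libraries. Primary mouse myoblasts, taken from hindlimb muscle of C57/Bl6J mice 8 weeks old and pre-plated to remove cells that attach quickly, were sampled on plastic, per the labels (day 0), and on patterned gelatin (days 4 and 7 of differentiation); before that they were grown on dishes coated with extracellular matrix gel, and whether the day 0 dishes were coated is not stated. C2C12 cells, a mouse myoblast line obtained from ATCC, were sampled on plastic at day 0 and then, at days 4 and 7, from gelatin with grooves (patterned), flat gelatin (unpatterned) and plastic. Which animal gave which primary library, and which of the C2C12 batches the study describes these cells were, is not given in the sources used here. Day 0 cultures were confluent and still in growth serum, and later cultures had been in low horse serum since day 0. Growth media differed between the cells, per the paper. Primary myoblasts had Ham's medium with basic fibroblast growth factor and a higher share of fetal bovine serum, and C2C12 cells had DMEM. At day 0 the kind of cell and the growth medium therefore cannot be told apart. The cultures of days 4 and 7 were treated briefly with trypsin to enrich myotubes before RNA was taken, and whether day 0 cultures were treated in the same way is not given in the sources used here. Day 4 on gelatin therefore differs from day 0 in substrate and serum, and perhaps in enrichment, as well as in time. Those effects cannot be told apart. On plastic the substrate was the same, but serum, time and perhaps enrichment differed there too and cannot be told apart either.

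Myoblasts must leave the cell cycle before they fuse into myotubes, whose nuclei do not divide again. D-type cyclins with Cdk4 and Cdk6, and then cyclin E with Cdk2, inactivate the retinoblastoma protein and its relatives, which frees E2F factors to switch on genes of S phase. Genes of G2 and mitosis are switched on later by a complex of B-Myb and MuvB proteins and by FoxM1, and in resting cells the DREAM complex, in which pocket proteins, an E2F and the MuvB core are joined, represses both groups. Myoblasts that do not fuse can remain among the myotubes, so RNA of these genes in a differentiated culture is commonly read as a sign of residual dividing cells. In bulk RNA, fewer dividing cells and less of this RNA per cell cannot be told apart.

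The promoters of 4 genes are shown because the roles into which the genes were sorted differ in known promoter elements. Whether these elements bear on the changes described below was not tested. The windows come from RefSeq (GRCm38.p6), run from 250 bases before to 50 bases after the annotated start, and are given 5′ to 3′ on the strand of the gene. Capitals mark matches on either strand to E2F words (TTTGGCGC, TTTCCCGC, TTTGCCGC or TTTCGCGC), to the CHR word TTTGAA, the element through which MuvB binds, and to the CCAAT box; overlapping matches run together. The windows are chr10:128705002-128705301 for Cdk2, chr1:128359656-128359955 for Mcm6, chr10:69352863-69353162 for Cdk1 and chr9:70421505-70421804 for Ccnb2, all on the minus strand.
Cdk2: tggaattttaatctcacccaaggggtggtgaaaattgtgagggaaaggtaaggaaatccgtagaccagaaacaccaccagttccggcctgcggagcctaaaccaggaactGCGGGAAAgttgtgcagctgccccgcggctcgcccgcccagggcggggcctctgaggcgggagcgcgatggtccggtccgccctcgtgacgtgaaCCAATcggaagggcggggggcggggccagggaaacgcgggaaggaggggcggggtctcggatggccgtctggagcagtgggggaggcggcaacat
Mcm6: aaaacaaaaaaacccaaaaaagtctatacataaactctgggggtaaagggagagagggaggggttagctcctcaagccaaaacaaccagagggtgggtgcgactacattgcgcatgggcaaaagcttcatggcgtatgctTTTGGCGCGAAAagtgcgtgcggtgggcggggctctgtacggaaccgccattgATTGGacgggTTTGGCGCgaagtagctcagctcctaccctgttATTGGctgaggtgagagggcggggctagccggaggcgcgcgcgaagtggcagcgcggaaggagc
Cdk1: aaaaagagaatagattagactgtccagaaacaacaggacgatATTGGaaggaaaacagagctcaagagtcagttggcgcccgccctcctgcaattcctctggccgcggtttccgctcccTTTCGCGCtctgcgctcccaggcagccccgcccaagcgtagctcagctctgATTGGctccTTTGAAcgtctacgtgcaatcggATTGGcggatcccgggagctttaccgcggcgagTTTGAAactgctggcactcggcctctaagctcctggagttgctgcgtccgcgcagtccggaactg
Ccnb2: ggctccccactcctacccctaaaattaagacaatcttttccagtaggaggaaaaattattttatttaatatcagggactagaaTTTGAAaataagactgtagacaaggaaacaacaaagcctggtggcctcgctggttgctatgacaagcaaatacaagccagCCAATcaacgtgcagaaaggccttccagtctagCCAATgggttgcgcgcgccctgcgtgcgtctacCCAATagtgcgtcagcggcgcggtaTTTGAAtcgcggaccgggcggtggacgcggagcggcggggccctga

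Of the 50 genes, 41 matched a window of this kind. An E2F word lay in 7 of 11 replication windows and in 0 of 14 windows of the chromosome and spindle group, against 2.6% of 27025 genes with a window. In the other roles it lay in 1 of 4 windows of G1 to S regulators, 0 of 4 of nucleotide supply and 1 of 8 of G2 and mitosis regulators. The CHR word lay in 6 of 8 windows of G2 and mitosis regulators, in 9 of 14 chromosome and spindle windows and in 2 of 11 replication windows, against 20.2% of all. It lay in 1 of 4 windows of G1 to S regulators and in 0 of 4 of nucleotide supply. Every one of the 18 members with a CHR word also held a CCAAT box. Of all genes 5466 held a CHR word, and 2155 held both in the same window. Both lay in 43.9% of the members with a window, against 7.97% of all genes. A CCAAT box of any kind lay in 32 of 41 members, against 41.1% of all. A match describes letters in the window and does not show that a factor binds there. Among genes outside the 50, 13 of 37 replication windows held an E2F word and 39 of 59 mitosis windows a CHR word. An E2F word also lay in 8 of 59 mitosis windows and a CHR word in 7 of 37 replication windows.

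Library totals ranged between 13.1 M and 59.4 M estimated counts (median 27.3 M), and the 50 genes took 0.0464% to 0.379% of them in primary libraries and 0.0852% to 0.786% in C2C12 libraries. The summed level of 12 myotube markers was 10340 to 22449 TPM in primary libraries of days 4 and 7, against 1113 to 2264 TPM at day 0, and 13100 to 17398 TPM in C2C12 libraries of days 4 and 7, against 663 to 936 TPM at day 0. The 8 genes listed as myoblast markers were Pax7, Myf5, Myod1, Cdh15, Itga7, Des, Vcam1 and Megf10. Their summed level was also higher later, at 2616 to 3571 TPM in primary libraries of days 4 and 7, against 2270 to 2465 TPM at day 0. In C2C12 libraries it was 2822 to 4726 TPM, against 1426 to 1714 TPM. Whether this sum follows the share of unfused myoblasts was not tested, so it is not a measure of them. Within that list Pax7, the marker of muscle stem cells, went against the sum in primary cells at day 4. It had 10.3, 7.35 and 2.35 TPM there, against 49.6, 47.3 and 39.8 TPM at day 0. The other markers of that list are not given singly here, so Pax7 does not stand for the list. The 8 fibroblast markers summed to 221 to 298 TPM in primary myoblasts and 1018 to 1235 TPM in C2C12 myoblasts, and Pdgfra and Dcn averaged 0.31 and 0.45 TPM in the primary myoblasts. The sums of endothelial, leukocyte, Schwann cell and adipocyte markers each stayed under 14.2 TPM in every library, with Adgre1 at 0 in all 30. Some libraries stood apart in the genes described here: C2C12 day 7 plastic replicate 1 had a median of 5.85 TPM over the 50 genes, against 10.7 TPM in each of the other two, and primary day 0 replicate 3 had 16.3 TPM, against 29.0 and 27.8 TPM. Primary day 4 replicate 3 was low as well, at 2.41 TPM against 5.51 and 3.88 TPM. In the muscle markers too the primary libraries of replicate 3 were low: Ckm, the muscle creatine kinase, had 283, 392 and 80.6 TPM at day 4 and 777, 574 and 14.1 TPM at day 7.

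The level of these genes over the 10 groups had a simple order. The median over the 50 genes averaged 24.4 ± 7.03 TPM in primary myoblasts at day 0, 3.93 ± 1.55 TPM at day 4 and 2.49 ± 0.14 TPM at day 7 (SD, n = 3 each). In C2C12 myoblasts at day 0 it averaged 68.4 ± 5.88 TPM, and in the 6 groups of C2C12 myotubes it lay between 7.35 ± 0.646 TPM (patterned gelatin, day 7) and 10.5 ± 0.068 TPM (unpatterned gelatin, day 4). The groups of C2C12 myotubes differed little from their neighbours in this order, and the plastic libraries of day 7, from 5.85 to 10.7 TPM, went beyond the range of the others at both ends. No C2C12 myotube library fell as low as the highest primary library of day 4.

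**Figure D1:**
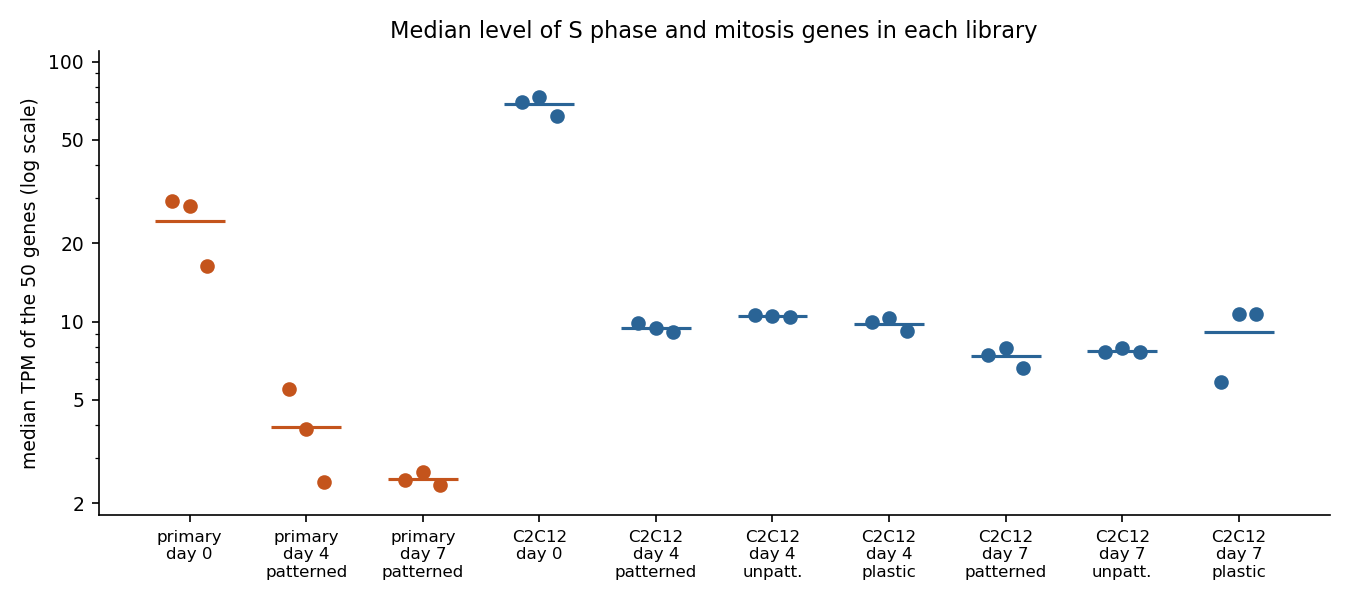
Median TPM of the 50 genes (vertical axis, log scale) in each library (points) of the 10 groups (horizontal axis), with the mean of a group as a line; primary cells are orange and C2C12 cells blue. The 3 C2C12 day 0 libraries lie at 61.9 to 73.3 TPM and the 3 primary day 0 libraries at 16.3 to 29.0 TPM, each above all later libraries of its own cells.

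In C2C12 cells nearly the whole set fell between day 0 and day 4, a comparison of cultures enriched for myotubes with confluent myoblasts. On patterned gelatin 49 of the 50 genes fell and 1 rose, where 60.1% of the 14844 genes tested were called by edgeR's quasi-likelihood test (Benjamini-Hochberg adjusted p under 0.05) and 29.3% were called lower and 30.9% higher. The counts, 49 and 1, were equal on unpatterned gelatin, where 59.7% of all genes were called (30.4% higher, 29.3% lower), and on plastic, where 58% were called (30.2% higher, 27.7% lower). These comparisons share the same 3 day 0 libraries. The median log2 fold change of the 50 genes was -3.19 on patterned gelatin and -2.95 on unpatterned gelatin, and -2.81 on plastic. The spread between genes was wide, also within a role, as the plot of the change of each gene shows.

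Regulators of G2 and mitosis kept the lowest median share of the 5 roles on patterned gelatin at day 4. Ube2c, the ubiquitin-conjugating enzyme that works with the anaphase-promoting complex, had 10.9, 11.5 and 12.7 TPM on patterned gelatin at day 4, against 189, 143 and 170 TPM at day 0, a log2 fold change of -3.80 (standard error 0.16, edgeR adjusted p = 1.83e-13). Cdc20, the activator of that complex, had 10.1, 13.6 and 10.7 TPM, against 128, 151 and 129 TPM. Ccnb1, which encodes cyclin B1, the partner of Cdk1 at mitotic entry, averaged 13.1 ± 1.73 TPM at day 4 and 169 ± 17 TPM at day 0 (SD, n = 3 each). Mybl2, which encodes B-Myb, fell by 3.74 on the log2 scale (standard error 0.20, edgeR adjusted p = 4.09e-12), and in the chromosome and spindle group Bub1, a kinase of the spindle checkpoint, fell by 3.69 (standard error 0.23, edgeR adjusted p = 5.41e-11). In Ube2c and Cdc20 every day 4 library lay far below every day 0 library. The 3 genes with the deepest falls were Ube2c (-3.58), Mybl2 (-3.56) and Cdc6 (-3.52) on unpatterned gelatin, with edgeR adjusted p of 4.58e-13, 9.51e-12 and 1.03e-10, and Cdc6 (-3.67), Mybl2 (-3.52) and Ccnd1 (-3.51) on plastic, with edgeR adjusted p of 5.3e-11, 9.03e-12 and 1.7e-12.

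Cdk1, the kinase that drives entry into mitosis (chr10:69335146-69352938), kept 36.0, 34.8 and 32.1 TPM at day 4 on patterned gelatin, against 362, 355 and 308 TPM at day 0. Ccna2, cyclin A2, had 17.7, 16.9 and 13.8 TPM at day 4, against 180, 169 and 138 TPM at day 0. Foxm1, the transcription factor of mitotic genes, had 5.84, 7.61 and 6.54 TPM, against 88.0, 91.1 and 72.1 TPM. Aurkb and Birc5, subunits of the chromosomal passenger complex, moved by like amounts: Aurkb had 6.17, 5.98 and 7.33 TPM at day 4, against 70.0, 73.5 and 61.7 TPM at day 0, and Birc5, which encodes survivin, averaged 10.5 ± 0.753 TPM at day 4 and 131 ± 2.93 TPM at day 0 (SD, n = 3 each). All 11 regulators of G2 and mitosis fell, and at day 4 they kept 7.00% to 10.3% of their day 0 mean TPM (median 8.46%).

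Genes of chromosomes and the spindle followed closely. Mki67 (chr7:135689784-135716361), which encodes the Ki-67 antigen used to stain cycling cells, had 12.7, 9.18 and 13.2 TPM at day 4 on patterned gelatin, against 131, 111 and 118 TPM at day 0. Top2a, the topoisomerase that untangles sister chromosomes, had 33.4, 37.2 and 34.6 TPM, against 342, 357 and 291 TPM. Cenpk, a subunit of the inner kinetochore, had 2.58, 2.66 and 2.10 TPM, against 27.1, 22.8 and 21.1 TPM. The 16 genes of this group all fell, and kept a median of 10.1% of the day 0 mean, with 7.58% the lowest.

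Replication genes and the enzymes of nucleotide supply fell less. The 13 replication genes kept a median of 18.1% of the day 0 TPM on patterned gelatin, and the 4 nucleotide genes kept 28.4%. Pcna, the sliding clamp of the DNA polymerases (chr2:132249162-132253314), had 74.3, 72.7 and 65.7 TPM at day 4, against 257, 243 and 214 TPM at day 0, a log2 fold change of -1.64 (standard error 0.07, edgeR adjusted p = 4.17e-13). Mcm6, a subunit of the replicative helicase, had 17.9, 18.0 and 18.4 TPM, against 128, 126 and 105 TPM, and its partner Mcm2 had 11.6, 11.8 and 11.1 TPM, against 61.5, 66.0 and 51.3 TPM. The licensing factor Cdc6 fell furthest in its group, with 1.12, 1.19 and 1.09 TPM at day 4, against 18.7, 16.1 and 14.4 TPM at day 0, and kept 6.91%, the lowest share of the 50.

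Rrm1 and Rrm2 encode the large and small subunits of ribonucleotide reductase, which makes deoxyribonucleotides. Rrm2 had 102, 113 and 98.6 TPM at day 4 on patterned gelatin, against 352, 332 and 301 TPM at day 0, and was the most abundant of the 50 genes in the myotubes on this length-corrected scale. Rrm1 kept 42.7% of its day 0 TPM, the highest share among the genes that fell. Tk1, the thymidine kinase of S phase, had 11.8, 14.2 and 11.4 TPM, against 112, 129 and 103 TPM, so members of this small group did not move alike.

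The regulators of S phase entry kept between 8.12% (Ccnd1) and 128% (Cdk2) of their day 0 TPM at day 4 on patterned gelatin. Ccnd1 (chr7:144929931-144939925), cyclin D1, had 6.66, 8.20 and 6.97 TPM at day 4 on patterned gelatin, against 107, 91.9 and 70.2 TPM at day 0. Ccne1, cyclin E1, had 3.01, 3.85 and 2.98 TPM, against 28.4, 29.4 and 29.9 TPM, and Ccne2, cyclin E2, had 5.41, 4.35 and 5.19 TPM, against 47.6, 41.0 and 30.4 TPM. E2f1, which activates genes of S phase, fell less, with 6.50, 6.63 and 6.10 TPM at day 4, against 21.9, 23.4 and 19.5 TPM at day 0.

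Cdk2, the kinase partner of the E and A cyclins (chr10:128697939-128705031), was the 1 gene of the 50 that rose. It had 47.5, 55.6 and 49.7 TPM at day 4 on patterned gelatin, against 39.9, 44.8 and 34.9 TPM at day 0. The log2 fold change was 0.43 on patterned gelatin (standard error 0.10, edgeR adjusted p = 0.00145), 0.37 on unpatterned gelatin (standard error 0.10, edgeR adjusted p = 0.00424) and 0.50 on plastic (standard error 0.10, edgeR adjusted p = 0.000327). Scaled by library totals alone, without TMM factors, the rise was 0.23 on patterned gelatin (edgeR adjusted p = 0.0602), 0.20 on unpatterned gelatin (0.1) and 0.31 on plastic (0.015), so the call on both gelatins rested on the scaling. On the log2(TPM + 1) scale limma gave Cdk2 an adjusted p of 0.0264 with patterned gelatin, 0.0816 with unpatterned gelatin and 0.078 with plastic. Scaling by totals put the median of all genes at -0.21 in the comparison on patterned gelatin.

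**Figure D2:**
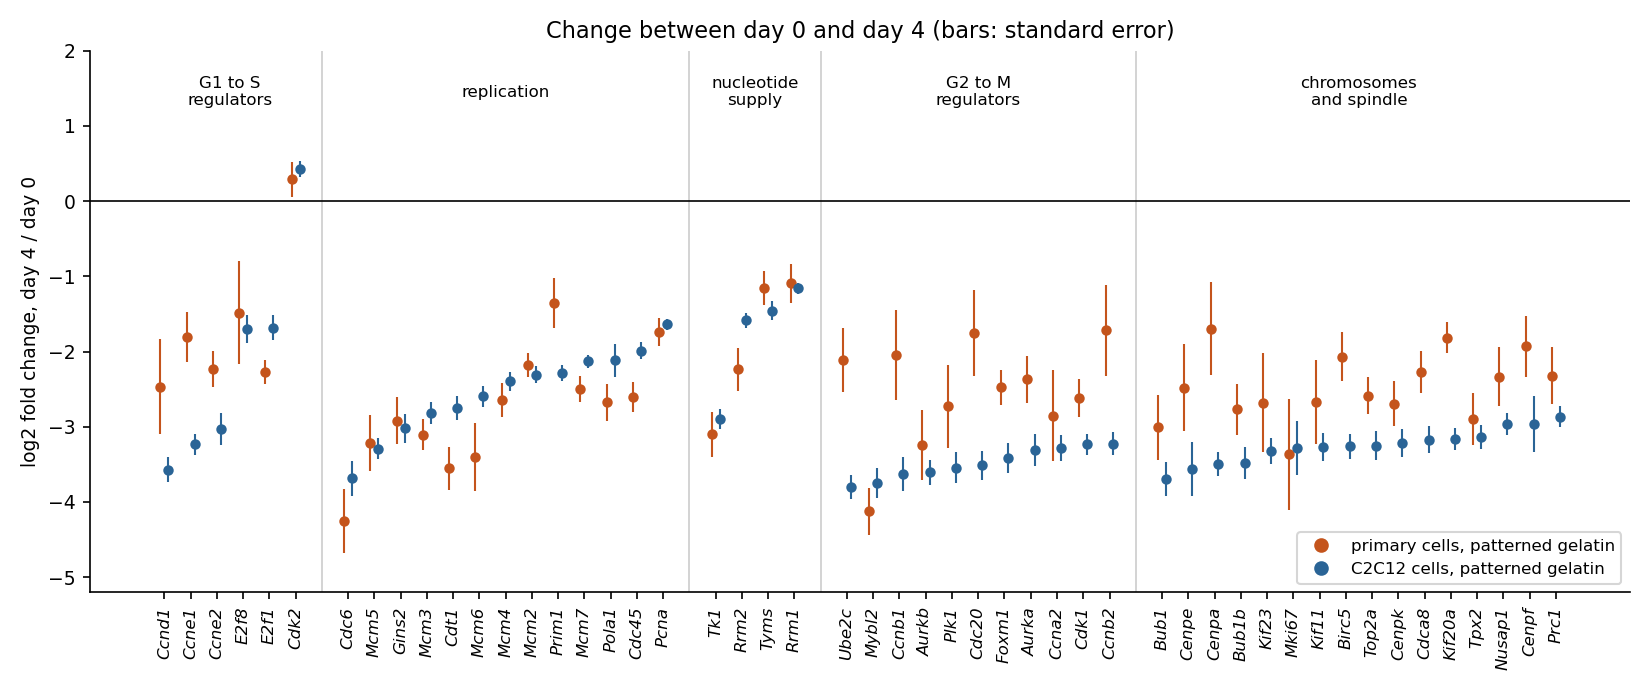
Log2 fold change between day 0 and day 4 (vertical axis, with standard error) of each of the 50 genes, grouped by role (horizontal axis), in primary cells (orange) and C2C12 cells (blue) on patterned gelatin. All values but those of Cdk2 lie below 0, and in C2C12 cells the regulators of G2 and mitosis lie lower (median -3.51) than the replication genes (median -2.40).

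Primary cells also lost these transcripts by day 4. Of the 50 genes 47 fell and 0 rose, where 42.6% of 14352 genes were called, 20.2% higher and 22.4% lower; the median log2 fold change was -2.48. The regulators of G2 and mitosis and the replication genes kept the same median share of their day 0 TPM, 15.2%. The 3 steepest falls were in Cdc6, Mybl2 and Cdt1. Cdc6 fell by 4.26 on the log2 scale (standard error 0.42, edgeR adjusted p = 0.000124) and had 0.919, 0.866 and 0.358 TPM at day 4, against 12.1, 13.7 and 18.9 TPM at day 0. Mybl2 fell by 4.12 (standard error 0.31, edgeR adjusted p = 3.96e-05) and Cdt1, the licensing factor that loads the helicase with Cdc6, by 3.55 (standard error 0.29, edgeR adjusted p = 4.93e-05).

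Falls of mitotic genes in primary cells varied between libraries. Ccnb2, cyclin B2, had 3.82, 1.75 and 0.713 TPM at day 4, against 8.65, 7.88 and 4.91 TPM at day 0, and Ube2c had 8.17, 4.18 and 2.41 TPM, against 30.4, 29.7 and 13.6 TPM. Ccna2 had 6.31, 2.83 and 1.11 TPM at day 4, against 31.1, 31.8 and 12.3 TPM at day 0. In each of these replicate 3 was the lowest on both days. Mki67 had 4.59, 2.02 and 0.611 TPM, against 37.7, 27.0 and 13.4 TPM, a log2 fold change of -3.37 (standard error 0.74, edgeR adjusted p = 0.00623), against -3.28 in C2C12 cells.

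The 3 genes that did not pass in primary cells were Cenpa (log2 fold change -1.70, edgeR adjusted p = 0.0538), E2f8 (-1.48, edgeR adjusted p = 0.115) and Cdk2 (0.29, edgeR adjusted p = 0.353). Replicate numbers pair the primary libraries, and with the number as a block 49 genes fell, among them Cenpa (-1.86, edgeR adjusted p = 0.00222) and E2f8 (-1.74, edgeR adjusted p = 0.00177). Cdk2 had 44.3, 48.4 and 46.1 TPM at day 4 in primary cells, against 35.4, 38.1 and 44.3 TPM at day 0, and the days touched at 44.3 TPM.

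The change between day 0 and day 4 was then compared directly between the kinds of cell on patterned gelatin, in a fit of all 30 libraries. The change of 13 genes differed, where 20.5% of 15447 genes differed (9.87% upward, 10.6% downward). For 12 of them the primary cells changed upward relative to C2C12 cells, that is, they fell less, and 6 of these 12 are regulators of G2 and mitosis. The largest differences were in Cenpa, the histone H3 variant of centromeres, with a log2 difference of 1.86 (standard error 0.47, edgeR adjusted p = 0.00581), in Cdc20 with 1.82 (standard error 0.49, edgeR adjusted p = 0.00927) and in Ube2c with 1.74 (standard error 0.37, edgeR adjusted p = 0.00127). Cdc45, a component of the active helicase, was the single gene in the other direction, at -0.57 (standard error 0.20, edgeR adjusted p = 0.04). Without primary day 4 replicate 1, the library with the highest levels of mitotic genes in its group, 8 genes differed, 5 of them upward. The starting levels differed as well, since mitotic genes were lower in primary than in C2C12 myoblasts at day 0.

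Between day 4 and day 7 the median change of the 50 genes was smaller than between day 0 and day 4. In C2C12 cells on patterned gelatin 19 genes fell and 1 rose, where 20.3% of all genes were called, 11.3% higher and 9.03% lower, and 11 of the 16 chromosome and spindle genes were among those that fell, with 0 of the 13 replication genes called. Mki67 had 5.94, 1.47 and 5.29 TPM at day 7, against 12.7, 9.18 and 13.2 TPM at day 4, a log2 fold change of -1.47 (standard error 0.35, edgeR adjusted p = 0.00975). Cenpf and Cenpe, large proteins of the outer kinetochore, changed by -1.30 (standard error 0.38, edgeR adjusted p = 0.0247) and -1.24 (standard error 0.38, edgeR adjusted p = 0.0313). Rrm1 rose by 0.20 (standard error 0.07, edgeR adjusted p = 0.0483). The call was lost with RLE factors (edgeR adjusted p = 0.0573), without the filter (0.112) and with a replicate block (0.0567). It was also lost with only the libraries compared (edgeR adjusted p = 0.208) and by limma on log2(TPM + 1) (adjusted p = 0.0588). It held by DESeq2 (adjusted p = 0.0332), and in edgeR with library totals (0.0324) or with the trend on length removed (0.0267). The count of 20 was 9 without day 4 replicate 1 and 11 without day 4 replicate 3 or day 7 replicate 3, and Rrm1 was then not called. With only the 6 libraries compared in the fit it was 3. The 3 genes with transcripts over 6 kb (Mki67, Cenpf and Cenpe) had a median of -1.30, against -0.30 for the 18 genes under 2 kb, and over all genes the medians were -0.15 and 0.10. With each library's trend on length removed, an alternative added after seeing the data, 19 genes were called and Mki67 changed by -1.34 (edgeR adjusted p = 0.0111). The fibroblast markers summed to 1068 to 1688 TPM at day 7, against 790 to 966 TPM at day 4, and their part in the result was not tested.

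Cdk1 on patterned gelatin had 27.3, 21.4 and 24.3 TPM at day 7, against 36.0, 34.8 and 32.1 TPM at day 4. Ccna2 had 10.1, 9.92 and 7.74 TPM, against 17.7, 16.9 and 13.8 TPM. Neither overlapped between the days, while Pcna, at 87.7, 85.1 and 62.4 TPM against 74.3, 72.7 and 65.7 TPM, did. At day 7 the genes of G2 and mitosis kept a median of 6.53% of their day 0 TPM and the replication genes 17.5%.

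On unpatterned gelatin 3 genes fell between these days, where 2.92% of all genes were called, 1.62% higher and 1.31% lower: Kif23, a kinesin of cytokinesis (log2 fold change -0.89, standard error 0.18, edgeR adjusted p = 0.0104), E2f8, a repressor among the E2F factors (-0.74, standard error 0.19, edgeR adjusted p = 0.0435), and Cenpa (-0.64, standard error 0.16, edgeR adjusted p = 0.0408). The count was 0 without day 7 replicate 2 and 1 without any other single library of the comparison, but 20 with only the libraries compared in the fit and 12 by DESeq2. On plastic 10 genes fell, where 14.8% were called (6.47% higher, 8.37% lower), led by E2f8 (-0.92), Ube2c (-0.85) and Cdc20 (-0.84), with edgeR adjusted p of 0.00382, 0.00218 and 0.00761. The libraries of plastic were uneven at day 7: Mki67 had 6.60, 14.3 and 17.0 TPM, against 13.1, 14.1 and 14.3 TPM at day 4, and the count was 5 without day 7 replicate 1, 22 without day 7 replicate 3, 3 without day 4 replicate 2, and 6 without day 4 replicate 1 or replicate 3.

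In primary cells 0 of the 50 genes were called by edgeR between day 4 and day 7, as were 0% of all genes, in the fit that leaves out the pairing by replicate number. At an unadjusted p under 0.05 there were 18, and 2 by DESeq2 (Cdk1 and Kif20a). Cdk1 had 10.2, 7.50 and 7.82 TPM at day 7, against 23.5, 17.5 and 10.6 TPM at day 4, and the days did not overlap. Mki67 was at 0.871, 0.650 and 0.182 TPM, against 4.59, 2.02 and 0.611 TPM, and was 2.18% of its day 0 mean at day 7, the lowest share of the 50 genes in that group. With the replicate number as a block its log2 fold change between these days was -1.95 (edgeR adjusted p = 0.0965). The median log2 fold change of the 50 genes was -0.49. Of the 50 genes 8, 8 and 14 were under 1 TPM in the 3 primary libraries of day 7, and at most 1 was in any C2C12 library.

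Few genes were called between substrates at day 4, and the number depended on the fit. On patterned gelatin 3 genes were lower than on plastic, where 3.55% of all genes were called, 2.1% higher and 1.46% lower: Ube2c (log2 difference -0.66, standard error 0.16, edgeR adjusted p = 0.0292), Cenpa (-0.63, standard error 0.16, edgeR adjusted p = 0.0321) and Kif20a, a kinesin of cytokinesis (-0.53, standard error 0.13, edgeR adjusted p = 0.0361). Ube2c had 10.9, 11.5 and 12.7 TPM on patterned gelatin, against 18.1, 16.1 and 14.6 TPM on plastic, and Cenpa had 13.9, 14.9 and 14.5 TPM, against 18.3, 22.8 and 16.9 TPM. On unpatterned gelatin Foxm1 alone was lower than on plastic (-0.70, standard error 0.20, edgeR adjusted p = 0.0371), where 7.89% of all genes were called (4.02% higher, 3.87% lower). Foxm1 had 8.63, 7.01 and 8.12 TPM on unpatterned gelatin, against 11.3, 9.63 and 8.64 TPM on plastic, so the highest unpatterned library was level with the lowest plastic one. Both comparisons share the plastic libraries, and both counts were 0 without any single library of the comparison. With only the libraries compared in the fit they were 21 and 13, and by DESeq2 7 and 2.

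Patterned and unpatterned gelatin at day 4 differed in 0 of the 50 genes by edgeR, where 0.00674% of all genes were called. At an unadjusted p under 0.05 there were 2, and by DESeq2 0. At day 7 that comparison gave Cenpk alone, at 1.75, 1.18 and 0.920 TPM on patterned gelatin, against 3.28, 2.71 and 2.54 TPM on unpatterned gelatin (log2 difference -1.05, standard error 0.23, edgeR adjusted p = 0.0446), where 0.546% of all genes were called (0.397% higher, 0.148% lower). Cenpk was not called without patterned replicate 2 or 3 or without any of the unpatterned libraries, when the count was 0, and the count was 3 without patterned replicate 1. Cenpk had only 31, 12 and 8 estimated counts on patterned gelatin, against 56, 44 and 45 on unpatterned gelatin. Patterned replicates 2 and 3 of day 7 had the lowest totals of the 30 libraries, 16.8 M and 13.1 M, so depth limits this difference.

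At day 7 the difference between patterned gelatin and plastic was wider. Of the 50 genes 17 were lower on patterned gelatin and 1 was higher, where 23.8% of all genes were called, 12.9% higher and 10.9% lower. Of the 16 chromosome and spindle genes 12 were lower, while 1 of the 13 replication genes was called, the helicase subunit Mcm7, which was higher (log2 difference 0.28, standard error 0.09, edgeR adjusted p = 0.0266). Mcm7 was not called without patterned replicate 3, plastic replicate 1 or plastic replicate 2, and was not called by limma on the log2(TPM + 1) scale, which gave 0.08 and an adjusted p of 0.621. The largest differences were in Cenpe (-1.48, standard error 0.38, edgeR adjusted p = 0.0125), Mki67 (-1.48, standard error 0.35, edgeR adjusted p = 0.00833) and Cenpf (-1.45, standard error 0.38, edgeR adjusted p = 0.0138). Mki67 had 5.94, 1.47 and 5.29 TPM on patterned gelatin, against 6.60, 14.3 and 17.0 TPM on plastic, and Cenpe had 1.64, 0.318 and 2.08 TPM, against 2.14, 5.06 and 4.85 TPM. In both, patterned replicate 2 was lowest, and plastic replicate 1 lay near the other patterned libraries.

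Cenpk had 1.75, 1.18 and 0.920 TPM on patterned gelatin at day 7, against 1.98, 3.24 and 3.21 TPM on plastic, with no overlap. These levels rest on few reads, 31, 12 and 8 estimated counts against 28, 48 and 59. The count of 18 genes was 27 without plastic replicate 1, the low one, 12 without plastic replicate 3, 13 without patterned replicate 3 and 17 without patterned replicate 2. It was 0 when the 6 libraries compared were fitted alone, where the 21 libraries of the fit reported here share an estimate of the spread. Unpatterned gelatin and plastic at day 7 differed in 0 of the 50 genes by edgeR, where 3.46% of all genes were called (2.49% higher, 0.977% lower). At an unadjusted p under 0.05 there were 12, and 3 by DESeq2. Without plastic replicate 1 that count was 16, all lower on unpatterned gelatin.

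Fibroblast markers and transcript length moved with the comparison of patterned gelatin and plastic at day 7. The 8 fibroblast markers summed to 1068 to 1688 TPM on patterned gelatin and 653 to 1076 TPM on plastic, and 4 of the 6 that were tested were higher on patterned gelatin; their part in the result was not tested. The 3 genes with transcripts over 6 kb (Mki67, Cenpf and Cenpe) had a median log2 difference of -1.48, against -0.26 for the 18 genes under 2 kb, and over all genes tested the median was -0.14 for 823 genes over 6 kb and 0.08 for 5975 genes under 2 kb. With the trend of each library on length removed, an analysis added after seeing the data, 19 genes were called and Mki67 changed by -1.29 (edgeR adjusted p = 0.0106). Among the shorter genes Nusap1, a spindle protein, was lower by -0.86 (standard error 0.16, edgeR adjusted p = 0.00268).

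**Figure D3:**
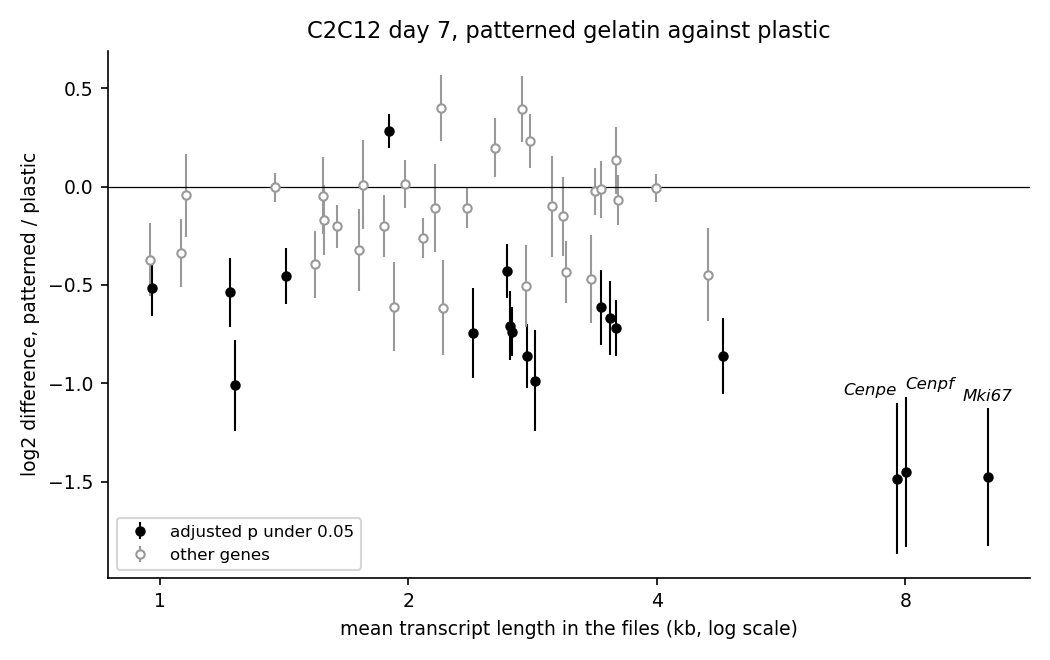
Log2 difference between patterned gelatin and plastic in C2C12 cells at day 7 (vertical axis, with standard error) against the expression-weighted transcript length of each of the 50 genes (horizontal axis, log scale); filled points passed the test. The 3 longest genes lie lowest, at -1.45 to -1.48, and Mcm7, at 0.28, is the only filled point above 0.

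Primary and C2C12 myoblasts differed strongly at day 0, and by role. In primary myoblasts 37 genes were lower and 5 higher, where 57.5% of 15447 genes were called, 29.6% higher and 27.9% lower. All 16 chromosome and spindle genes and 10 of 11 regulators of G2 and mitosis were lower (median log2 differences -2.26 and -2.49). Replication genes differed less in the median (-0.34), but 6 of 13 were lower and 2 higher. Mcm6 had 57.8, 64.8 and 67.6 TPM in primary myoblasts, against 128, 126 and 105 TPM in C2C12 myoblasts. The 4 genes of nucleotide supply summed to 188 to 319 TPM, against 572 to 665 TPM.

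Cenpa had 13.7, 13.1 and 5.70 TPM in primary myoblasts, against 161, 173 and 153 TPM in C2C12 myoblasts, a log2 difference of -3.88 (standard error 0.34, edgeR adjusted p = 7.07e-10). Ccnb2 had 8.65, 7.88 and 4.91 TPM in primary myoblasts, against 107, 104 and 98.3 TPM in C2C12 myoblasts (-3.75, standard error 0.33, edgeR adjusted p = 6.83e-10), and Cdc20 had 16.6, 17.6 and 10.6 TPM, against 128, 151 and 129 TPM (-3.12, standard error 0.35, edgeR adjusted p = 6.29e-08). Mki67 had 37.7, 27.0 and 13.4 TPM, against 131, 111 and 118 TPM, and Cdk1 had 108, 125 and 106 TPM, against 362, 355 and 308 TPM. No primary library reached the lowest C2C12 library in any of these. Of 7 fibroblast markers tested 6 were lower in primary myoblasts, and their part in these differences was not tested. The growth media of the cells differed too, and their part was not tested either.

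Mcm2, in contrast, had 48.2, 55.7 and 61.2 TPM in primary myoblasts, against 61.5, 66.0 and 51.3 TPM in C2C12 myoblasts, and the groups overlapped. Pcna had 272, 299 and 259 TPM in primary myoblasts, against 257, 243 and 214 TPM in C2C12 myoblasts, and was higher by 0.43 (standard error 0.12, edgeR adjusted p = 0.00373), though not by limma on the log2(TPM + 1) scale (0.22, adjusted p = 0.151). The other genes higher in primary myoblasts act around S phase entry: Ccnd1 (2.05, standard error 0.40, edgeR adjusted p = 0.000115), E2f1 (1.01, standard error 0.16, edgeR adjusted p = 6.12e-06), Ccne1 (0.92, standard error 0.22, edgeR adjusted p = 0.00118) and Cdt1 (0.81, standard error 0.20, edgeR adjusted p = 0.00105). Ccnd1 had 378, 449 and 258 TPM, against 107, 91.9 and 70.2 TPM, and E2f1 had 40.6, 42.3 and 38.3 TPM, against 21.9, 23.4 and 19.5 TPM.

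**Figure D4:**
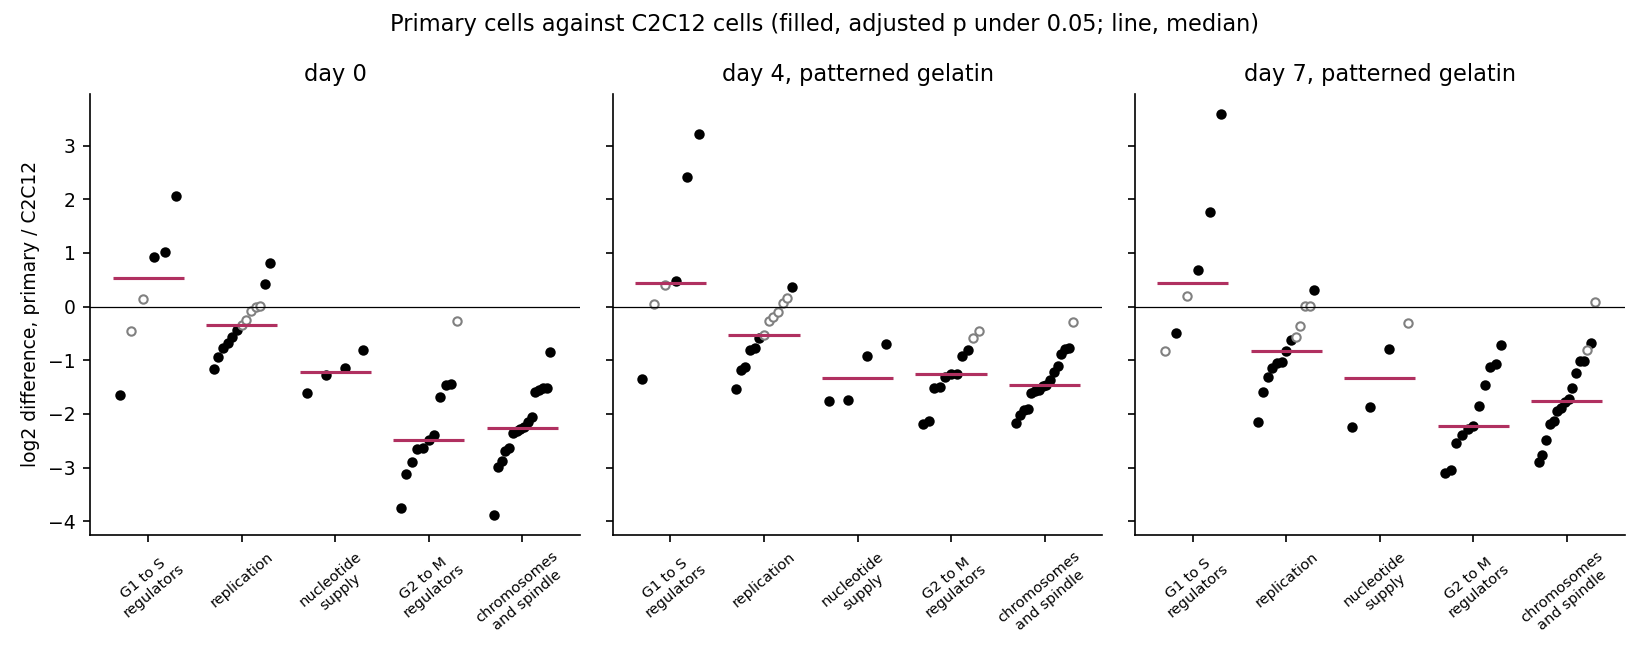
Log2 difference between primary and C2C12 cells (vertical axis) of each of the 50 genes by role (horizontal axis), with 1 panel for day 0 on plastic and 1 each for days 4 and 7 on patterned gelatin. Filled points passed the test and lines are medians. At day 0 the chromosome and spindle genes have a median of -2.26 and the replication genes one of -0.34; Ccnd1, the top point of each panel, lies at 2.05, 3.22 and 3.60.

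The difference between the cells persisted in myotubes on patterned gelatin. At day 4 primary cells were lower in 35 genes and higher in 4, where 50.6% of all genes were called (25.7% higher, 25% lower), and at day 7 they were lower in 37 and higher in 4, where 51.5% were called (25% higher, 26.4% lower). The median log2 difference was -1.49 at day 0, -1.02 at day 4 and -1.14 at day 7. At day 4 the 3 lowest were Ccnb2 (-2.19), Mki67 (-2.18) and Ccna2 (-2.14), with edgeR adjusted p of 8.59e-06, 0.00108 and 3.44e-05, and at day 7 Ccna2 (-3.09), Ccnb2 (-3.04) and Kif23 (-2.91), with edgeR adjusted p of 1.65e-06, 7.25e-07 and 1.04e-05.

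Genes of replication and nucleotide supply differed as well. Mcm6 had 8.90, 4.35 and 3.62 TPM in primary cells at day 4, against 17.9, 18.0 and 18.4 TPM in C2C12 cells, and Rrm2 had 35.7, 30.4 and 18.4 TPM, against 102, 113 and 98.6 TPM. Pcna was again called higher in primary cells (log2 difference 0.37 at day 4, edgeR adjusted p = 0.0123, and 0.31 at day 7, edgeR adjusted p = 0.0356). These calls rested on the scaling: by library totals the differences were 0.23 (edgeR adjusted p = 0.122) and 0.16 (0.292), and at day 7 Pcna averaged 78.9 ± 18.7 TPM in primary cells and 78.4 ± 13.9 TPM in C2C12 cells (SD, n = 3 each). Limma on log2(TPM + 1) called neither (adjusted p = 0.566 and 0.998). With only the libraries compared in the fit, Pcna was called at day 4 (edgeR adjusted p = 0.0119) and not at day 7 (0.284). Tk1 at day 7 had 2.09, 2.52 and 1.39 TPM in primary cells, against 8.34, 9.95 and 8.04 TPM in C2C12 cells.

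Ccnd1 and Ccne1 stood apart from the rest. Ccnd1 had 99.6, 72.4 and 21.8 TPM in primary cells at day 4, against 6.66, 8.20 and 6.97 TPM in C2C12 cells on patterned gelatin (log2 difference 3.22, standard error 0.43, edgeR adjusted p = 1.03e-06), and 151, 79.4 and 30.4 TPM at day 7, against 8.05, 8.45 and 9.51 TPM (3.60, standard error 0.44, edgeR adjusted p = 2.51e-07). In 2 of the 3 primary libraries of each day Ccnd1 was above the lowest C2C12 myoblast library of day 0 (70.2 TPM), and replicate 3 was the lowest. Ccne1 had 19.5, 12.9 and 9.94 TPM in primary cells at day 4, against 3.01, 3.85 and 2.98 TPM in C2C12 cells (2.41, standard error 0.25, edgeR adjusted p = 2.08e-08), and at day 7 the log2 difference was 1.76 (standard error 0.25, edgeR adjusted p = 3.17e-06). E2f1 was higher in primary cells at day 4 (0.47, standard error 0.16, edgeR adjusted p = 0.018) and lower at day 7 (-0.50, standard error 0.16, edgeR adjusted p = 0.0134). Ccne2 was higher at day 7 (0.68, standard error 0.24, edgeR adjusted p = 0.0215). With library totals in place of TMM factors, the higher calls of E2f1 at day 4 (0.33, edgeR adjusted p = 0.0995) and of Ccne2 at day 7 (0.52, edgeR adjusted p = 0.0794) were lost. E2f1 at day 7 was not called without C2C12 replicate 3 or primary replicate 2. With only the libraries compared in the fit, the day 7 calls of E2f1 (edgeR adjusted p = 0.16) and Ccne2 (0.186) were lost. The day 4 call of E2f1 held there (edgeR adjusted p = 0.0175) but was lost by limma on log2(TPM + 1) (adjusted p = 0.133).

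**Figure D5:**
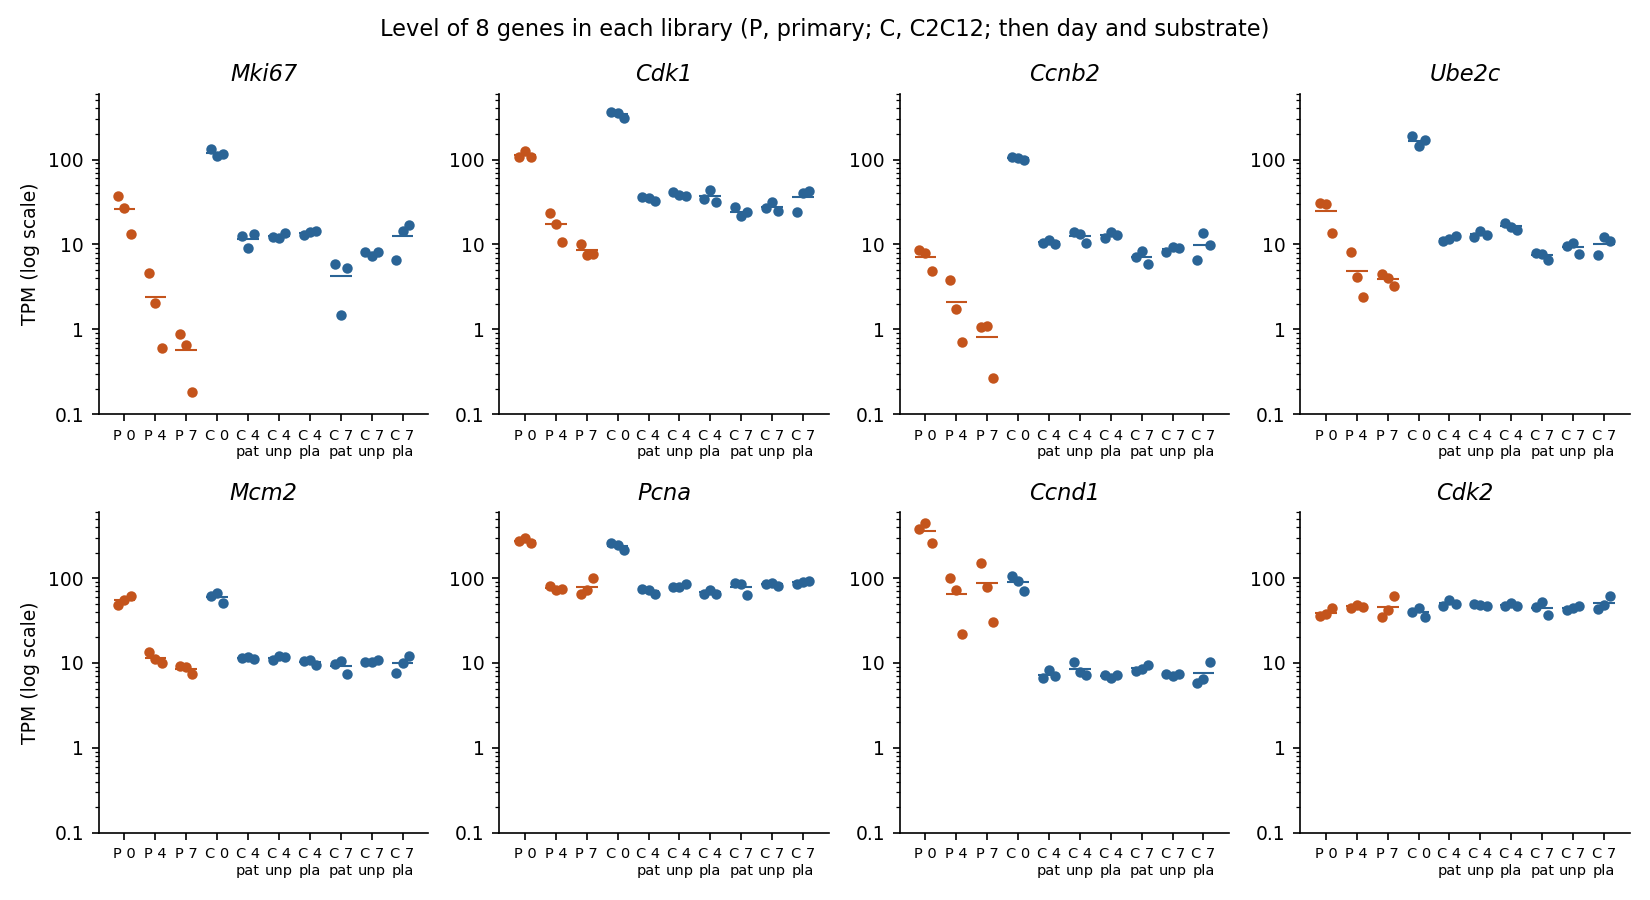
TPM (vertical axis, log scale) of 8 of the genes in each of the 30 libraries (points; lines, group means), by cell, day and substrate (horizontal axis; pat, patterned gelatin; unp, unpatterned gelatin; pla, plastic; primary cells of days 4 and 7 were on patterned gelatin). Mki67, Cdk1, Ccnb2 and Ube2c lie lower in primary cells on every day, Mcm2 and Pcna lie close together, Ccnd1 lies higher in primary cells, and Cdk2 stays between 34.4 and 62.0 TPM throughout.

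Other genes of these pathways, in lists that do not include the 50, were counted in the same way. Of 71 further mitosis genes, 71 fell in C2C12 cells between day 0 and day 4 on patterned gelatin and 67 fell in primary cells; of 48 further replication genes, 45 and 46 fell. Of all genes tested 29.3% fell in C2C12 cells and 22.4% in primary cells. In C2C12 cells these included Hmgb2, a chromatin protein (log2 fold change -3.23, edgeR adjusted p = 7.56e-14), and in primary cells Lmnb1, the nuclear lamin B1 gene (-2.76, edgeR adjusted p = 1.58e-05), and Lig1, the ligase of the lagging strand (-3.05, edgeR adjusted p = 2.18e-05). In the comparison of patterned gelatin with plastic at day 7, 31 of the 71 mitosis genes were lower and 0 higher, and 6 of the 48 replication genes were lower and 2 higher, where 10.9% of all genes were lower and 12.9% higher. At day 0, 68 of the 71 mitosis genes and 23 of the 48 replication genes were lower in primary than in C2C12 myoblasts, where 27.9% of all genes were lower.

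Inhibitors of the cycle moved in both directions. Cdkn1a, which encodes the CDK inhibitor p21, rose by a log2 fold change of 2.09 in primary cells between day 0 and day 4 (edgeR adjusted p = 2.97e-05) and by 2.91 in C2C12 cells on patterned gelatin (edgeR adjusted p = 5.6e-15). Rb1, the retinoblastoma gene, rose in both (0.99, edgeR adjusted p = 0.000758, and 1.35, edgeR adjusted p = 1.9e-07), and its relative Rbl1 fell in both (-1.72, edgeR adjusted p = 8.15e-05, and -2.13, edgeR adjusted p = 2.51e-13). Of 10 listed inhibitors and pocket proteins 3 rose and 2 fell in primary cells, where 20.2% of all genes rose and 22.4% fell, and of the 8 tested in C2C12 cells 4 rose and 3 fell, where 30.9% of all genes rose and 29.3% fell. Of the partners of D-type cyclins, Cdk4 fell in both kinds of cell (-1.67, edgeR adjusted p = 6.46e-05, and -1.39, edgeR adjusted p = 1.76e-10), while Ccnd3, cyclin D3, rose in C2C12 cells (1.19, edgeR adjusted p = 2.11e-08). Among E2F and MuvB genes outside the 50, E2f7, a repressor like E2f8, fell in both (-2.51, edgeR adjusted p = 0.000712, and -2.69, edgeR adjusted p = 3.62e-13).

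The other D-type cyclins were also higher in primary myoblasts at day 0. Ccnd2, cyclin D2, had 372, 371 and 414 TPM in primary myoblasts, against 16.2, 15.4 and 12.6 TPM in C2C12 myoblasts (log2 difference 4.81, standard error 0.22, edgeR adjusted p = 4.91e-15), and Ccnd3 had 695, 727 and 465 TPM, against 188, 207 and 207 TPM (1.68, standard error 0.13, edgeR adjusted p = 1.03e-10). Cdkn2a, which encodes the inhibitor p16 and the protein p19Arf, had 207, 251 and 171 TPM in primary myoblasts and was listed at 0 in all 3 C2C12 myoblast libraries, so no fold is given. Cdkn1a was higher in primary myoblasts as well (1.06, edgeR adjusted p = 8.03e-09).

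Over the 10 group means, the genes outside the lists whose pattern was most like the mean of the 50 were Cers2, Pclaf, Ska3, Tmpo, Nasp, Spdl1, Gli3, Tshz1, Elk3 and Prr11, with Pearson correlations of 0.989 to 0.995 on the log2(TPM + 1) scale among 10413 genes with a mean of at least 5 TPM. The points are 10 groups that share cells and substrates, and the correlation is a description. Among the 50, Top2a (0.998) and Cdk1 (0.997) were most like the mean of all, and Cdk2 (-0.59), Ccnd1 (0.38) and Ccne1 (0.58) least. Reads of Ccnb1, Ccnb2 and Pcna could have been shared with their pseudogenes in the transcript set, which makes the levels of these genes less certain.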

How the data were processed

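RNA of 30 cultures was sequenced by the authors as paired-end libraries. The deposited files hold, per the file headers and labels, Kallisto's estimated counts and TPM of 88198 transcripts, made by the authors against mm10; no source used here gives its version or annotation. TPM, as deposited, are shares of a library corrected for transcript length and sum to a constant, so a fall of abundant RNA raises the rest.

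Both values were summed per gene through GENCODE names (86031 transcripts matched, 2167 did not and held 0.723% to 0.893% of the counts), which gave 30205 genes. Estimated counts were rounded and tested with edgeR 4.0.16 (TMM factors, genes with low counts removed by filterByExpr, quasi-likelihood F test, Benjamini-Hochberg adjustment over all genes tested, threshold 0.05) in R 4.3.3. The 21 C2C12 libraries were fitted together, the 9 primary libraries together, and all 30 for comparisons between the cells, without a replicate block. Standard errors were taken as the size of the log2 change over the root of F. The script was tested on simulated data. The p-values rest on the spread between cultures within groups, 3 a group, pooled over all groups of a fit. The biological coefficient of variation was 0.119 in C2C12 and 0.293 in primary libraries, so the comparisons of primary cells were the less precise. In the fit of all 30 it was 0.184, so comparisons between the cells used a spread below that of the primary libraries alone.

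The 50 genes and the other lists were chosen with earlier results of these data known. Per-library values were printed for a set panel and for the genes a result turned on, the 3 largest changes in each direction were named, and of the other lists up to 3 genes with the smallest adjusted p. The Cdk2, Cdc6, Ccnb2, Cenpa and Cenpe libraries, and Ccnd2, Cdkn2a, Ckm and Nusap1, were added after their values were seen. Alternatives were RLE factors, library totals, DESeq2 1.42.0, no filter, limma 3.58.1 on log2(TPM + 1), only the libraries compared, a replicate block, each library left out, and, chosen after seeing the data, removal of each library's trend on transcript length.

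Replicate numbers pair the primary libraries: the deviations of same-numbered libraries from their group means correlated at 0.206 to 0.778 in all 9 pairs.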

Additional observations from a re-analysis of the deposited data

Results flagged for a closer look

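The change between day 0 and day 4 on patterned gelatin differed between primary and C2C12 cells in 13 of the 50 genes, by the test of the difference itself (edgeR, adjusted p under 0.05), where 20.5% of all genes differed. The count was 8 without primary day 4 replicate 1. Values are the log2 change in primary cells minus that in C2C12 cells. Among regulators of G2 and mitosis these were Cdc20 (1.82), Ube2c (1.74), Ccnb1 (1.64), Ccnb2 (1.56), Foxm1 (1.00) and Aurka, a kinase of the spindle poles (0.99). Among chromosome and spindle genes they were Cenpa (1.86), Kif20a (1.40), Birc5 (1.24) and Cdca8, a subunit of the chromosomal passenger complex (0.96). Ccne1 (1.49) and the primase subunit gene Prim1 (0.97) differed in the same direction, and Cdc45 (-0.57) in the other. The adjusted p-values ran between 7.74e-05 for Kif20a and 0.0488 for Aurka.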

How the results depend on the processing

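Every fall of the 50 genes between day 0 and day 4 kept its direction under all alternatives run, and 0 results reversed. Small counts moved. With only the libraries compared in the fit, the count of genes called was 3 between days 4 and 7 on patterned gelatin (20 in the fit of 21 libraries), 2 on plastic (10), 20 on unpatterned gelatin (3), 21 for patterned gelatin against plastic at day 4 (3), 13 for unpatterned gelatin against plastic at day 4 (1), and 0 for patterned gelatin against plastic (18) and against unpatterned gelatin (1) at day 7. With limma on log2(TPM + 1) it was 5 between the days on plastic, 0 on unpatterned gelatin, and 0 for both gelatins against plastic at day 4. DESeq2 called 12 between the days on unpatterned gelatin, 2 in primary cells, 7 and 2 for patterned and unpatterned gelatin against plastic at day 4, and 3 for unpatterned gelatin against plastic at day 7. Without each library's trend on length, patterned gelatin against plastic at day 4 gave 1. The cause was not tested.

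With single libraries left out, the counts were 9 to 19 between days 4 and 7 on patterned gelatin, 3 to 22 on plastic, 0 to 1 on unpatterned gelatin, 0 for both gelatins against plastic at day 4, 12 to 27 for patterned gelatin against plastic, 0 to 3 against unpatterned gelatin and 0 to 16 for unpatterned gelatin against plastic at day 7, and 8 to 17 for the difference in change between the cells. Of the values of single genes under alternatives, 1757 stayed on their side of the threshold, 175 lost the call and 8 gained it.

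A replicate block gave 1 gene between the days on unpatterned gelatin. C2C12 libraries share only a number: their 63 same-numbered pairs correlated at -0.187 to 0.224, and 7 of 21 libraries were nearest to their own number. The block moved no other count by more than 1.5 times. At day 7 primary libraries held up to 14 of the 50 genes under 1 TPM, where depth limits a fold change.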
